A study of Homo sapiens with 7 samples.

Results

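A total of 15193 nucleosome positions carried H3K4me3 and H3K9ac together and had no H3K27ac, H3K27me3 or H3K9me3 peak in HepG2 cells. The paper's one-letter name for this bivalent mark, "D", is used here. The positions were chosen by identifier: each listed nucleosome has an identifier, and a position was taken as D if its identifier was in the H3K4me3 and H3K9ac peak lists and in none of the other 3 histone peak lists. They made up 0.107% of the 14217405 nucleosome positions and 7.45% of the 203848 positions with at least 1 of the 5 marks. The paper reports far more nucleosomes with histone modification than these lists hold. The cause of the difference was not tested, and all shares here hold for the lists only. Of the 58248 positions with both H3K4me3 and H3K9ac, 26.1% were D (95% interval 25.7 to 26.4) and 73.6% also had H3K27ac. Nearly all of the latter were the trivalent mark H3K4me3/H3K9ac/H3K27ac, "T", which was found at 42763 positions. H3K4me3 with no other mark, "A", was found at 23407 positions, and H3K4me3/H3K27ac at 3821.

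HepG2 is an established human liver cancer cell line, and all 7 samples came from freshly cultured HepG2 cells with no treatment named. Nucleosome positions came from native MNase-Seq, in which chromatin without crosslinking is digested with micrococcal nuclease, and the 5 marks came from ChIP-Seq of crosslinked, sonicated chromatin, for which the labels name a pair of antibodies for each mark without saying which was used. RNA-Seq gave FPKM values, read counts scaled by transcript length and library size. There was 1 library per assay and no replicate, so there is no test between samples, and the intervals given are exact Clopper-Pearson 95% intervals that cover counting error only.

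The lists hold 85714 H3K4me3, 76681 H3K9ac, 95886 H3K27ac, 26271 H3K27me3 and 34534 H3K9me3 peaks, each called at a listed position. They give no reads, height or enrichment, so the depth behind a single D call is unknown, and a position "without" H3K27ac is one at which no H3K27ac peak passed the authors' limits. These are bulk data, so a mark present in a part of the cells and a weak mark in all cells cannot be told apart. The cell type markers fitted the label: all 12 hepatocyte and liver tumour markers were found, with ALB at an FPKM of 10011 and AFP at 3798, while the 4 of 5 markers of other cell types that were found reached at most 0.349 (VIM) and PTPRC was at 0.

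H3K4me3 is written by the SET1 and MLL methyltransferase complexes, mainly at active promoters, and is read by proteins that recruit acetyltransferases. H3K9ac is written largely by the GCN5 and PCAF enzymes (KAT2A and KAT2B), and H3K27ac by CBP and p300 (CREBBP and EP300). D and T share H3K4me3 and H3K9ac, and differ in H3K27ac. H3K27ac is also widely used as a mark of active enhancers.

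The promoter sequences of 4 genes described below are printed to show the promoters of genes on which the text dwells: MFSD1 and SLC35F2, where D surrounded the transcription start site (TSS), and AFP and SPP1, which were highly expressed with D and no T. They are the RefSeq promoters of GRCh38.p14, from 250 bases before to 50 bases after the RefSeq start, 5′ to 3′ on the strand of the gene. The peaks are in hg19, so these coordinates are not those of the peaks. Capitals mark CG, the dinucleotide at which DNA is methylated.
MFSD1: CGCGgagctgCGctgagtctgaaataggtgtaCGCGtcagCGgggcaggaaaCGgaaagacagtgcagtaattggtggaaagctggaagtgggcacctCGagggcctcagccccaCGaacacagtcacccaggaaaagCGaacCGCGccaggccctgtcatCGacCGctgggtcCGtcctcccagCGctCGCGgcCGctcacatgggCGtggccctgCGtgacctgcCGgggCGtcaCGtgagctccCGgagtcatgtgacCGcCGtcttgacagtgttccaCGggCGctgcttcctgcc
SLC35F2: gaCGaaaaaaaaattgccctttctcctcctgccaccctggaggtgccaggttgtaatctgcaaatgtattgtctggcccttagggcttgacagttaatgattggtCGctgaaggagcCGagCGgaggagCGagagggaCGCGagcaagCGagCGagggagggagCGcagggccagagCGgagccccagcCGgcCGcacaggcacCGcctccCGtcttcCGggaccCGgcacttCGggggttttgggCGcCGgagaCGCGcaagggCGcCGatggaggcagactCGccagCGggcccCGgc
AFP: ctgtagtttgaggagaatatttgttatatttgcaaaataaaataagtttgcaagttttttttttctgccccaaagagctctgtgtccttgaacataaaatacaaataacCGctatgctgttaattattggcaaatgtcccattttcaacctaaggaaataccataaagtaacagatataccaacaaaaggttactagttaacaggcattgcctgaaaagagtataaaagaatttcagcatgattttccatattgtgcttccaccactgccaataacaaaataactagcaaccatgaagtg
SPP1: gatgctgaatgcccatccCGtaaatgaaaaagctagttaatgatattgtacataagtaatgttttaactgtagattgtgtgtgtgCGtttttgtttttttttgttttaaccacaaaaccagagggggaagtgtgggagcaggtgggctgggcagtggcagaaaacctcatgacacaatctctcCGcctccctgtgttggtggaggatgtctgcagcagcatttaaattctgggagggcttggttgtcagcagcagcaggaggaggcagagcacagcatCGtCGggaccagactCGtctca
MFSD1 (chr3:158801804-158802103, plus strand) has 29 CG and SLC35F2 (chr11:107858738-107859037, minus strand) has 27, both with 65.3% G and C. AFP (chr4:73435971-73436270, plus strand) has 1 CG with 33% G and C, and SPP1 (chr4:87975464-87975763, plus strand) has 6 CG with 47.7%. The median over all 22112 RefSeq promoters of this length with a single entry per gene was 12 CG, and 95.5% of them hold at least 1. TATAAA, searched on both strands and holding neither C nor G, is in the AFP window and in 12.7% of all these promoters, and not in the windows of the other 3 genes. These 4 are not offered as typical of their kinds: CALR, also highly expressed with D and no T, has 26 CG and a TATAAA. A gene can have several starts, and whether each RefSeq start is the listed TSS was not tested. Promoters could be matched for 53.7% of the analysed genes, too few to compare CG between classes of genes.

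D nucleosomes were near a TSS in much the same share as T, and lay mainly downstream of it. Of the 15193 D positions, 43.3% (42.5 to 44.1) had their midpoint within 2 kb of the TSS of 1 of the 13289 analysed genes, against 43.4% of T, 37.7% of A and 30.4% of H3K4me3/H3K27ac. With the TSS of all named loci, the share of D was 59.1%. Of the D positions within 2 kb, 79.4% (78.4 to 80.3) were downstream, where the transcribed part of the gene lies, against 80.3% of T and 72.5% of A. Far from analysed genes, 47.9% of D were over 10 kb from a TSS, against 48.5% of T, 51.7% of A and 58.6% of H3K4me3/H3K27ac. These shares count positions near loci left out of the analysed set. Away from every listed locus by over 2 kb lay 11.2% of D (10.7 to 11.7), against 5.46% of T (5.25 to 5.68) and 16.8% of A.

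Within the promoter, D lay farther into the gene than T. The median distance of downstream D from the TSS was 779 bp (quartiles 525 and 1076), against 547 bp (307 and 901) for T and 885 bp (539 and 1228) for A. The first 500 bp downstream held 18.3% of the D positions within 2 kb but 36.3% of T, and the stretch from 500 to 1250 bp held 48.4% of D (47.2 to 49.6) but 34.6% of T (34.0 to 35.3). Upstream, where distances were shorter, the medians were 409 bp for D and 365 bp for T. The order was also seen gene by gene. At 2653 genes with both marks downstream, the median D was farther from the TSS than the median T at 89.4% (88.2 to 90.6), by a median of 395 bp, and at 1842 genes with D and A the median A was farther than D at 73.3%, by a median of 207 bp.

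**Figure D1:**
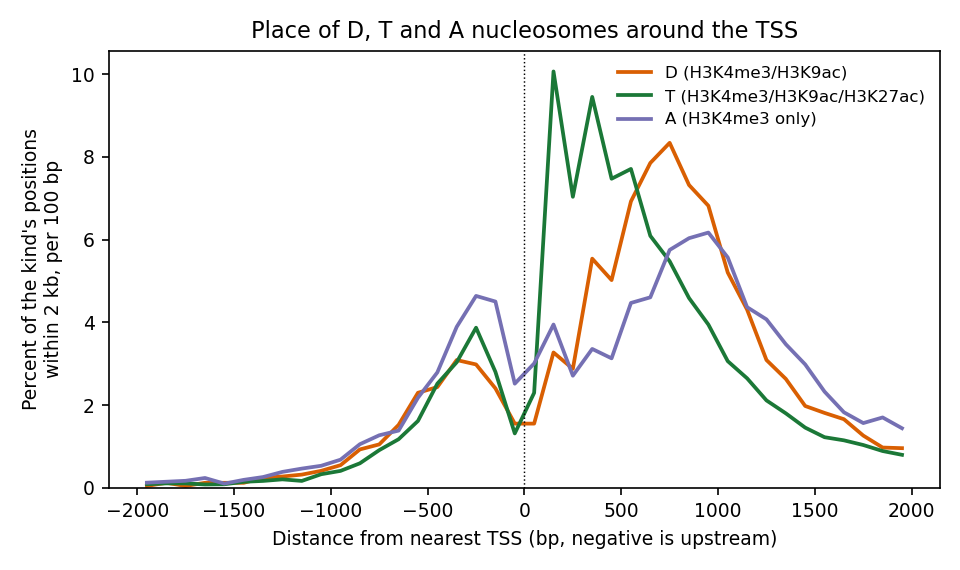
The x axis is the distance from the nearest TSS in bp, negative upstream, and the y axis the percent of each kind's positions within 2 kb per 100 bp, for D (orange), T (green) and A (purple). T is highest in the first 500 bp downstream, which hold 36.3% of T and 18.3% of D, while D is highest between 500 and 1250 bp, which hold 48.4% of D.

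Seen from the other side, the share of H3K4me3/H3K9ac nucleosomes that lacked H3K27ac was lowest next to the TSS and higher farther into the gene. Among D and T positions together, D made up 12% (10.9 to 13.1) in the first 250 bp downstream, 17.4% from 250 to 500 bp, 29.0% from 500 to 750 bp and 36.4% (34.7 to 38.1) from 750 to 1000 bp. It was 36.4% from 1000 to 1250 bp and 28.4% (24.7 to 32.3) from 1750 to 2000 bp. Upstream it was 24.1% in the 250 bp next to the TSS and 33.4% (28.8 to 38.3) from 750 to 1000 bp. Beyond the promoter the share changed little: 27.1% between 2 and 5 kb, 29.0% between 5 and 10 kb and 25.4% over 50 kb away.

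**Figure D2:**
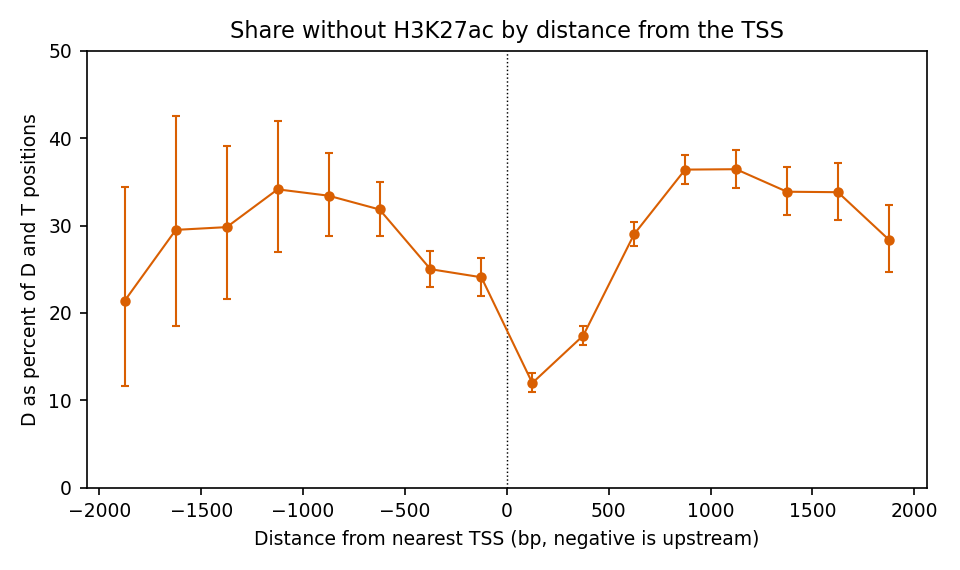
The x axis is the distance from the nearest TSS in bp (250 bp bins, negative upstream) and the y axis D as a percent of D and T positions, with exact 95% intervals as bars. The share is lowest, 12%, in the first 250 bp downstream and reaches 36.4% between 750 and 1250 bp.

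D nucleosomes often stood beside T, on one side of it. A T position was the next position on either side of 45.2% of D (44.4 to 46.0), on both sides of 4.02% and on exactly 1 side of 41.2%. T was on either side of 86.5% of T, 61.1% of H3K4me3/H3K27ac and 26.6% of A. It was on exactly 1 side of 49.5%, 48.5% and 24.8% of them, so a T on 1 side was not particular to D. T itself had T on both sides in 36.9% of cases. The neighbours of D were split almost evenly between D (26.0%), positions with no mark (25.1%) and T (24.6%), with A at 19.1% and H3K9ac alone at 3.08%. The neighbours of T were T in 61.7% of cases and those of A had no mark in 39.6%. For the 6262 D positions with T on exactly 1 side, the position on the other side had no mark in 37.5%, was D in 28.9% and A in 27.1%. The share with a T neighbour depends on what counts as one: 23.6% of D had a T midpoint within 200 bp and 56.0% within 500 bp. The nearest T was a median of 412 bp away, and 22.9% of D had none within 10 kb.

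**Figure D3:**
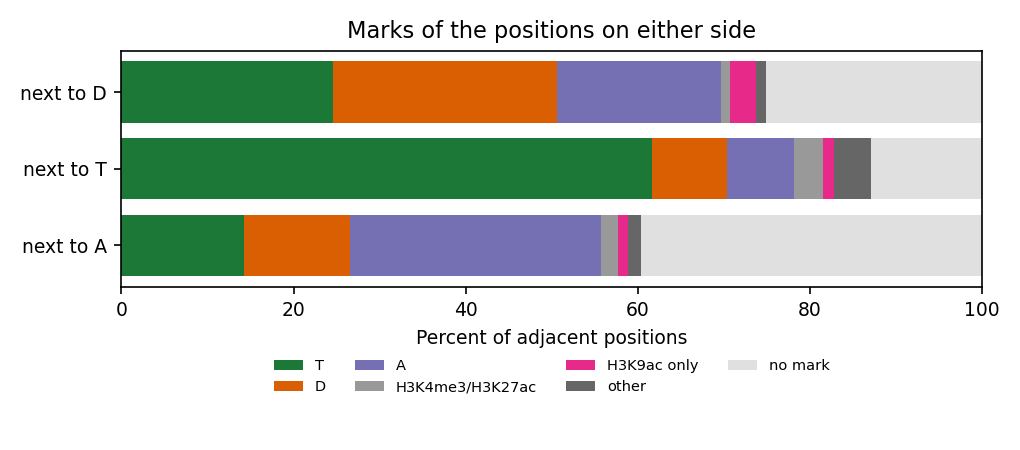
Each bar gives the marks of the next positions before and after D, T or A positions, as percent of all such neighbours, with the colours named in the key. D had T (24.6%), D (26.0%) and no mark (25.1%) in nearly equal parts, while 61.7% of the neighbours of T were T.

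Where D and T were neighbours near a TSS, D was mostly on the far side. Among 3000 D positions within 2 kb of a TSS and with T on exactly 1 side, T was the nearer of the pair to the TSS in 85.6% (84.3 to 86.8), 86.8% downstream and 80.6% upstream. For A the same measure was 75.7% (74.0 to 77.4) of 2596 positions, and for H3K4me3/H3K27ac 66.7% of 655. In unbroken stretches of positions with H3K4me3, H3K9ac or H3K27ac, D was at an end more often than T and less often than A. D occurred in 9595 of 51027 stretches, 67.9% of which also held T, and 69.3% of D positions were in a stretch with T. In the 5810 stretches of at least 4 positions with both D and T, 35.0% of D were the first or last position, against 13.9% of T and 52.5% of A. A further 29.1% of D were in stretches with no H3K27ac at all, which had a median length of 2 positions, against 6 for stretches with D and T.

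D was mostly single. Runs of D with no other position between them were of 1 position in 8264 cases, which held 54.4% of all D, of 2 in 2266, of 3 in 543 and of 4 to 7 in the rest, with 6 runs of 7. The median distance from the start of a D position to that of the next was 190.5 bp, against 210 bp for T and 180 bp for all positions. D overlapped a neighbouring position in 29.3% of cases and T in 24.6%, so a listed position is not always a separate nucleosome, and 6.36% of D overlapped a T position.

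Genes with D were mostly expressed. Of the 13289 analysed genes, 47.6% were expressed at an FPKM of 1 or more, 41.5% were silent at under 0.1, 30.8% had a D position within 2 kb of the TSS and 42.9% had a T position. A D position was found at 55.6% of the 6331 expressed genes (54.3 to 56.8), at 24.5% of genes between 0.1 and 1 (22.3 to 26.8) and at 4.08% of the 5516 silent genes (3.57 to 4.63). Above an FPKM of 1 the share varied little, from 52.4% at 1 to 3 to 61.1% (56.1 to 66.0) at 100 or more. Of the 4095 genes with D, 81.9% also had T, 46.1% had at least 2 D and 5.49% at least 4.

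The number of D positions ranked with FPKM across all genes, and hardly so among genes with T or among expressed genes. Across all analysed genes, Spearman's rho of the number of D with FPKM was 0.487, but it was -0.0121 over the 5697 genes with T and 0.00356 over the expressed genes, where rho of the number of T was 0.252 and 0.311. These are descriptions across genes of the same libraries, and genes are not independent replicates. The median FPKM was 10.01 in genes with 1 D, 8.99 with 2, 8.87 with 3, 7.53 with 4, 12.3 with 5 (40 genes) and 6.97 with 6 or more (15 genes), against 0.0428 in genes with none. At a matched number of T, the difference in median log2(FPKM + 0.01) between genes with and without D was 5.42 where there was no T. With 1, 2, 3, 4 and 5 or more T it was 0.06, 0.33, 0.04, 0.01 and 0.11. Their mean, weighted by the number of genes with D, was 0.12, with an SD of 0.13 over the 5 numbers of T. It was -0.10 with a window of 1 kb, so no direction is given for it. The difference at 0 T was 0.83 with a pseudocount of 1.

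Genes with D and no T had low or intermediate expression as a group. The 743 genes with D and no T were expressed in 46.8% of cases (43.2 to 50.5), with a median FPKM of 0.793, and 23.6% were silent. Genes with both D and T were expressed in 94.5% of cases (median FPKM 12.4), genes with T and no D in 93.7% (median 12.6), and genes with neither in 9.01% (median 0.00874). Among genes with no T, 41.7% were expressed with 1 D (36.8 to 46.8), 48.8% with 2, 54.4% with 3 and 64.2% with 4 or more (49.8 to 76.9), with median FPKM of 0.441, 0.954, 1.31 and 2.51. In genes with neither D nor T, the share expressed was 7.94% with no A, 14.5% with 1 A, 26.4% (20.1 to 33.4) with 2 and 18.8% (13.1 to 25.6) with 3 or more. With an expression limit of 0.1 the share of genes with D and no T called expressed was 76.4%, and with a limit of 5 it was 19.7%.

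The share of H3K4me3/H3K9ac nucleosomes without H3K27ac was highest at silent genes. Counted by the gene with the nearest TSS within 2 kb, D made up 66.7% (62.0 to 71.1) of D and T positions at genes with an FPKM under 0.1, 55.7% at 0.1 to 1, 37.2% at 1 to 3, 26.7% at 3 to 10, 22.1% at 10 to 30, 19.0% (17.9 to 20.1) at 30 to 100 and 22.4% at 100 or more. The first of these rests on 438 positions, since silent genes had few of either kind. In the first 500 bp downstream D made up 77.2% (69.2 to 84.0) at silent genes and 11.7% (11 to 12.5) at expressed genes, and from 501 to 1250 bp 72.1% and 32.0%. Over all named loci the share at silent genes was 42.9% in place of 66.7%. Of the 225 silent genes with D, 15.6% had the TSS of an expressed locus within 2 kb, against 1.54% of all silent genes. The part of this in the result was not tested. Among genes with no other named TSS within 10 kb the share of D at silent genes was 77.5% (71.8 to 82.5).

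**Figure D4:**
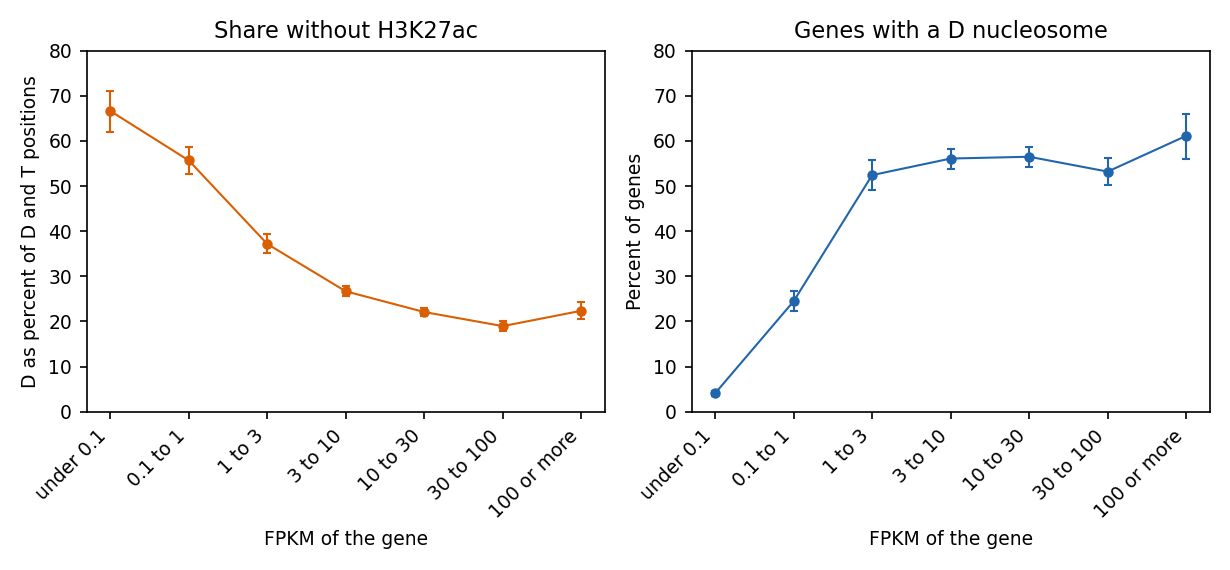
The x axes give 7 ranges of the FPKM of the gene and the bars are exact 95% intervals. On the left, D as a percent of D and T positions within 2 kb of the TSS falls from 66.7% to 19.0% at 30 to 100 and is 22.4% at 100 or more, and on the right the percent of genes with D is 4.08% at silent genes and at least 52.4% in every range from 1 up.

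The genes with the most D positions included pairs that share a promoter. C1orf124 (SPRTN, a protease that repairs DNA-protein crosslinks) and EXOC8 (a subunit of the exocyst) start 3 bp apart in opposite directions and share 9 D and 3 T positions, and LYAR (a nucleolar protein) and ZBTB49 (a zinc finger protein) start 28 bp apart and share 7 D and 1 T. Their D positions are thus counted at both genes. SLC35F2, a solute carrier expressed at FPKM values of 8.39 and 7.37 in the 2 runs, had 8 D positions on chromosome 11 between 107728697 and 107730633 (hg19). They had their midpoints at -649, -525, -302, -189, -67, 108, 933 and 1148 bp from the TSS, with a single T at 568 bp. Some of these listed positions share bases, as do some at LYAR, so they need not all be separate nucleosomes. MARS2 (mitochondrial methionyl-tRNA synthetase) and SKI (a repressor of SMAD signalling) had 7 D and 2 T each, and POP4 (a subunit of RNase P) 6 D and 1 T. DNMT3B, a DNA methyltransferase that sets new methylation, had 6 D, at 134 bp and then at 814, 959, 1124, 1294 and 1444 bp, with T at -336 and 479 bp.

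MFSD1, a lysosomal transporter, had the most D positions of any analysed gene with no T. Its FPKM values were 23.8 and 24.4 in the 2 runs, and its 7 D positions formed an unbroken run on chromosome 3 from 158519437 to 158520641 (hg19), at -209, -52, 278, 466, 611, 711 and 856 bp from the TSS. Positions at -649 and -449 bp carried H3K9ac alone, and the nearest T in the genome was 157194 bp away. The 7 D lay on both sides of the listed TSS. Those at 611 and 711 bp share bases, so the 7 need not all be separate nucleosomes.

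Highly expressed genes with D and no T were led by AFP, the fetal plasma protein that many liver tumours make, with FPKM values of 3732 and 3864 in the 2 runs. It had D at 683, 1668 and 1970 bp and A at 833, 1068, 1246 and 1378 bp, no marked position upstream or in the first 500 bp downstream, and its nearest T was 27622 bp away. The next were ALDOA (a glycolytic aldolase, FPKM 526), CALR (the chaperone calreticulin, 445), SPP1 (the secreted protein osteopontin, 436) and GSN (the actin-severing gelsolin, 119), with 1 D each. SPP1 had D at 329 bp among 5 A positions, and H3K27ac alone at -311 bp, so its promoter was not without H3K27ac. CALR had 3 T within 10 kb, the nearest 4987 bp from the TSS. ALDOA, whose gene has several known alternative starts, had its nearest T 11501 bp from the listed TSS. Of the genes with D, those with the highest expression were ALB (serum albumin, FPKM 10011), AFP, EEF1A1 (a translation elongation factor, 3740), RPL37A (3031) and RPS15A (2529), the last of them ribosomal proteins. ALB had D at 743 bp, nearer to the TSS than its T at 1511 and 1863 bp. EEF1A1 had 6 T and 2 D, the D at 994 and 1429 bp beyond the last T at 736 bp.

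Among silent genes, ADAMTS10 (a secreted metalloprotease), DDX25 (an RNA helicase of the testis), DNAI1 (a dynein chain of cilia) and ETV7 (an ETS factor) had 4 D positions each. ETV7 had D from -215 to 1070 bp, 2 on either side of the TSS, with 1 A and no T. Its FPKM was 0.124 in run 1 and 0.074 in run 2, on either side of the limit of 0.1 for silent genes. The D positions of DDX25 and DNAI1 were all upstream of their TSS. The oppositely oriented locus PUS3, with an FPKM of 6.34, starts 1156 bp from DDX25, and C9orf25, with 3.88, starts 243 bp from DNAI1, so those D positions lie near an expressed start as well.

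**Figure D5:**
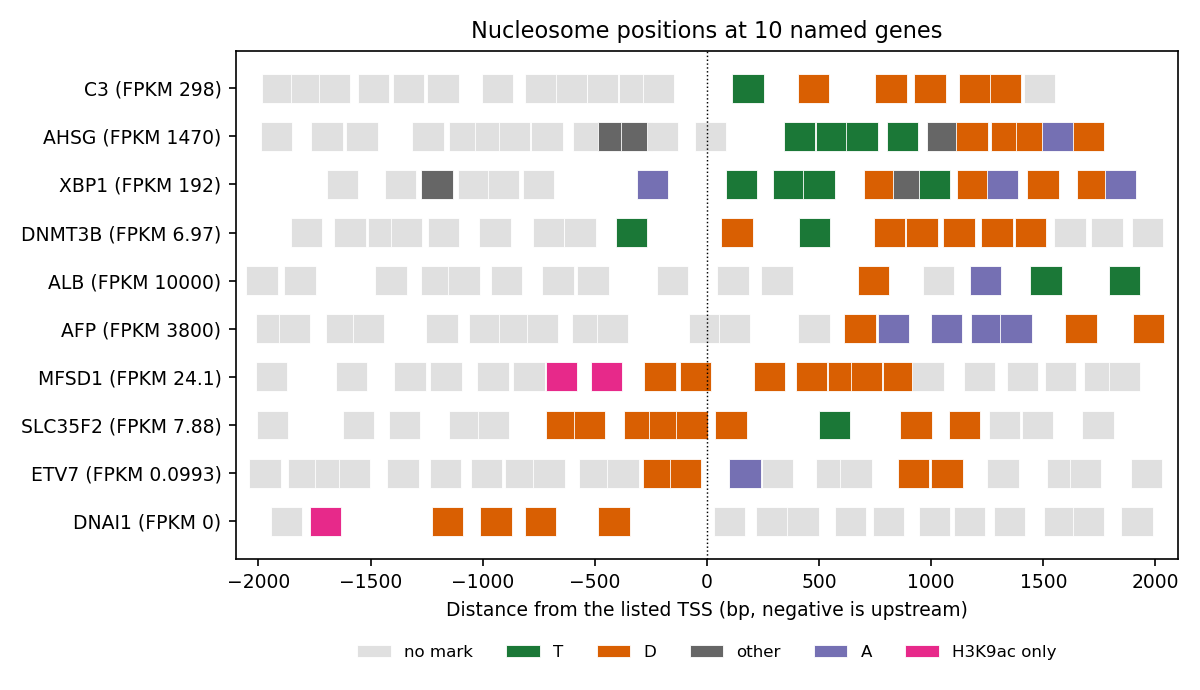
Each row is a gene with its FPKM, the x axis is the distance from its listed TSS in bp (negative upstream), and each block is a nucleosome position coloured by its marks. At C3 and AHSG the D blocks lie beyond T, at MFSD1 7 D blocks lie on both sides of the TSS with no T, and at ALB D lies nearer to the TSS than T.

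Among liver plasma protein genes, 13 of 37 analysed genes (35.1%) had D and 36 were expressed, beside a share of 55.6% with D among all expressed genes. T was found at 23 of them, beside 84.8% of all expressed genes. C3, the central complement protein (FPKM 298), had a single T at 183 bp followed by D at 475, 820, 995, 1195 and 1330 bp. AHSG, the plasma protein fetuin-A (FPKM 1473), had T at 414, 556, 691 and 871 bp followed by D at 1181, 1336, 1446 and 1701 bp. In the group of hepatocyte transcription factors 18 of 19 genes were expressed and 10 (52.6%) had D, near the 55.6% of all expressed genes. ONECUT2 and NR5A2 had D and no T. That makes 2 of 19 genes with D and no T, beside 5.50% of all expressed and 5.59% of all analysed genes. XBP1, a factor of the unfolded protein response (FPKM 192), had T at 154, 364, 499 and 1014 bp and D at 769, 1184, 1499 and 1719 bp, so the kinds were mixed there. ONECUT2 (FPKM 4.33) had 5 D and 6 A.

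In the ribosomal protein, proteasome and cell cycle lists all analysed genes were expressed, and their shares with D stand beside 55.6% of all expressed genes. D was found at 22 of 30 cytosolic ribosomal protein genes (73.3%), 14 of 23 proteasome subunit genes (60.9%) and 17 of 25 cell cycle genes (68%), in which T was found at 29, 23 and 24. The lists named 77, 31 and 40 genes, so the shares hold for the analysed genes only. RPLP0, of the ribosomal stalk, had D from 681 to 1071 bp and its last T at 558 bp. PSMA4, a core proteasome subunit, had 3 D, at -286, 774 and 949 bp, with 5 T between them from -161 to 669 bp. TTK, a kinase of the spindle checkpoint, had 5 D from -694 to 536 bp and 2 T.

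Of the enzymes and readers of the activation marks, all 20 analysed genes were expressed, 12 (60%) had D and 19 had T, beside 55.6% and 84.8% of all expressed genes. CREBBP, which writes H3K27ac (FPKM 7.27), had D at 761, 953 and 1246 bp and its T at -656, -479 and -324 bp. WDR5, a subunit of the H3K4 methyltransferase complexes (FPKM 18.5), had D at 1444, 1594 and 1719 bp and T at -111 bp. At both genes T and D thus stood on opposite sides of the TSS. RTTN, a centriole protein that the study used as an example of weak expression (FPKM 3.78), had T at 67 bp and D at 444, 639 and 784 bp. ASGR2, its example of high expression (FPKM 171), had no position with any mark within 2 kb of the listed TSS, and its nearest T was 10090 bp away. The paper shows single and multivalent marks near the TSS of this gene. Whether the listed TSS is the one shown there was not tested. A call of no D or no T at a gene thus holds for the listed TSS only. ASGR2 shares its coordinates with other loci, so it is not in the analysed set.

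Immediate early genes, which are induced within minutes of a stimulus, had the most genes with D and no T of any list. D was found at 15 of 23, of which 16 were expressed, beside 30.8% of all analysed and 55.6% of expressed genes. Of the 15, NR4A1, NR4A2, NR4A3, KLF2, KLF4 and EGR3 had no T, which makes 6 of 23 genes with D and no T, beside 5.59% of all analysed genes. CTGF, a matricellular protein (FPKM 64.0), had T at 586, 862 and 1037 bp and D at 1227, 1365, 1492 and 1847 bp, and FOS (FPKM 1.12) had 3 D and 1 T. None of the 24 neuronal genes analysed was expressed, and D was found at 0 of them and T at 1, beside 4.08% of all silent genes with D. No list was tested against others, and the shares of D among D and T positions in the lists given here, leaving out the neuronal genes, ran from 21.3% to 29.1%.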

How the data were processed

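The authors aligned MNase-Seq reads with BWA to hg19 (per the submitters' processing notes), called positions with DANPOS and peaks with NUCLIZE (P value and false discovery rate of at most 0.01, at least 4-fold enrichment), and deposited coordinates with identifiers. Reads per peak, and so depth, are unknown. The authors deposited RNA-Seq as FPKM in 2 columns, here runs 1 and 2, whose mean was used as 1 replicate (Pearson r of log2 values 0.988). Whether these are separate cultures is not stated. For RNA the notes name TopHat2 2.1.0, Bowtie and HOMER 4.7, among others. Columns with the authors' fold changes and p-values between runs were not used.

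TSS came from locus coordinates, with the strand inferred from locus numbering, the same as in RefSeq for 99.6% of 7132 genes that could be matched. Of 22065 named loci, the 13289 with their own coordinates and symbol were analysed. Neighbours are the next positions by start. Named genes are the 10 with the most D, the 5 with the highest FPKM with D and with D and no T, the 5 silent genes with the most D, those named by the study, and up to 2 with the most D per list. Some genes that this rule gives are not reported here. Members, lists and rules were chosen with earlier results of these data known. The steps were tested on simulated data. The analysis ran in Python 3.11.15 with pandas 2.3.3, numpy 2.4.6, matplotlib 3.10.9 and scipy 1.17.1.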

Additional observations from a re-analysis of the deposited data

How the results depend on the processing

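No paired analysis was possible because there is 1 library per assay. Of 65 alternatives over 13 results, 36 stayed within the interval or spread of the value in the report or, for the number of D (13963 and 14884 against 15193), within 1.5 times of it. The cause of the other changes was not tested beyond what each setting counts. The share of D within 2 kb of a TSS was 32.2% at 1 kb, 48.0% at 5 kb and 59.1% over all named loci. A T neighbour was found for 47.4% with non-overlapping neighbours, 23.6% within 200 bp, 56.0% within 500 bp and 40.9% of the 13963 D positions that no peak of the other 3 marks overlapped, of which 2.93% had T on both sides. The downstream share was 74.7% at 1 kb and 81.8% over all named loci, where 83.7% of D lay on the far side of T. Expressed genes had D in 49.8% of cases at a limit of 0.1, 43.2% at 1 kb, 59.5% at 5 kb and 46.5% over all named loci. Genes with D and no T were expressed in 76.4% of cases at a limit of 0.1, 19.7% at 5 and 41.6% with a 5 kb window. The log2 FPKM difference at 0 T was 0.83 with a pseudocount of 1, 1.67 in genes of at least 0.1, 5.01 at 5 kb, 6.22 in run 1 and 6.37 in run 2, and the mean over 1 or more T was -0.10 at 1 kb, against 0.12. Alternatives for the last results were chosen after seeing the data. The share of D at silent genes was 42.9% over all named loci and 77.5% at genes with no other TSS within 10 kb, that at expressed genes was 21.9% at 1 kb and 22.5% for D with no overlapping peak, and D was farther downstream than T at 88.0% of genes over all named loci. The unknown depth limits every call of a missing H3K27ac peak.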

Other observations

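D was densest on chromosome 19, with 38.6 per 10000 nucleosome positions, followed by chromosomes 17 (21.8) and 22 (21.7). It was sparsest on chromosomes Y (3.38), 13 (4.89), X (5.73) and 18 (5.78). T followed the same order at the top, with 89.5, 68.2 and 55.9 per 10000. The share of D among D and T positions was 30.2% (28.7 to 31.7) on chromosome 19 and 21.9% (19.4 to 24.5) on chromosome 13, against 26.2% genome-wide.

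H3K27me3, the mark of the Polycomb complex PRC2, lay within 1 kb of 1.45% of D positions (1.27 to 1.66), 0.0748% of T and 3.16% of A. At the gene level it was found within 2 kb of the TSS of 11.7% of genes with D and no T (9.49 to 14.2), 0.776% of genes with both and 16.6% of genes with neither. Among genes with D and no T the share was 16% of 175 silent genes, 17.3% of 220 genes between an FPKM of 0.1 and 1 and 6.03% of 348 expressed genes, beside 17.4% of 5244 silent genes with neither D nor T.

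Besides the run at MFSD1, the longest runs of 7 D were nearest to PYCARD (an inflammasome adaptor, 416 bp), SPAG4 (2513 bp), SLC4A11 (a membrane transporter, 3402 bp), TNK2 (a tyrosine kinase, 13332 bp) and MIR3143 (29086 bp). PYCARD had an FPKM of 0.585 and SLC4A11 of 6.98. They are named for their length after the values were seen.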
